A study of Homo sapiens with 17 samples.

Results

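Primed-only promoter contacts were pairs of a baited promoter fragment and a fragment without a bait, on the same chromosome and at most 1 Mb apart, that stood in the contact list of primed human pluripotent stem cells (PSCs) and not in that of naive PSCs. A pair was left out when the naive list held the same pair, or a pair whose ends both had midpoints within 10 kb of its own. The rule left 23125 contacts, which was 31.5% of the 73433 bait-to-other contacts of up to 1 Mb in the primed list (95% Wilson interval 31.2 to 31.8, counting error only), among 128955 contacts of any kind in either list. They joined 7077 baited fragments to 18932 partner fragments. Of the other primed contacts, 33330 were the same pair in both lists and are called shared, and 16978 lay within 10 kb of a naive contact. The same rule with the lists exchanged gave 20117 naive-only contacts from 7662 baits. The order of these numbers turned when the same number of top-scoring pairs was taken from each list (19087 primed-only and 22011 naive-only) and with a distance limit of 500 kb (15642 and 18120). Members were chosen by presence in the score-filtered lists, so their numbers, distances, scores and reads are given as a description without a test.

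All libraries came from H9 NK2, a single established human embryonic stem cell line, kept in 2 pluripotent states in 5% O2 and 5% CO2. Naive PSCs grew on Matrigel in t2iL+PKCi, a medium with the MEK inhibitor PD0325901, the GSK3 inhibitor CHIR99021, LIF and the protein kinase C inhibitor Gö6983, and primed PSCs grew on vitronectin in TeSR-E8. Contacts were mapped by Promoter Capture Hi-C (PCHi-C), in which ligated HindIII fragments are enriched for promoters with RNA baits, from 2 libraries per state that the authors combined into 1 list per state, so no contact has a replicate value. CUT&RUN for H3K4me1 gave 2 naive and 3 primed libraries, and Hi-C was deposited as 1 library per state. Cell state, culture medium and substrate cannot be told apart in this design.

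Promoters are brought near distal DNA by loops of the chromatin fibre, some held by CTCF and cohesin, some formed between active enhancers and their target genes, and some between genes bound by Polycomb proteins. H3K4me1 is a histone mark of enhancers, both active and poised, and of the flanks of active promoters. Naive PSCs resemble the epiblast before implantation and primed PSCs the epiblast after implantation, when developmental regulators are held silent but ready for lineage induction.

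The sequences of a few partner fragments show the DNA at the distal end of these contacts. Each is 300 bases from the plus strand of GRCh38 about the centre of a 500 bp tile. That tile had the highest primed minus naive H3K4me1 difference of those centred in the fragment. A window can run past the end of its fragment. The first 4 belong to the partners with the largest increase in primed cells. The TSPO2/UNC5CL partner window (chr6:40330601-40330900) lay outside coding genes and annotated exons, with LRFN2 as the nearest coding gene. The LINC02716 partner window (chr11:45411101-45411400) overlapped an exon of an unnamed lncRNA. The ADAMTS9-AS1 partner window (chr3:65344601-65344900) also lay outside coding genes and annotated exons. The SPATS2L partner window (chr2:200310101-200310400) lay in an intron of SPATS2L. Introns of noncoding genes were not looked up.
TSPO2/UNC5CL partner: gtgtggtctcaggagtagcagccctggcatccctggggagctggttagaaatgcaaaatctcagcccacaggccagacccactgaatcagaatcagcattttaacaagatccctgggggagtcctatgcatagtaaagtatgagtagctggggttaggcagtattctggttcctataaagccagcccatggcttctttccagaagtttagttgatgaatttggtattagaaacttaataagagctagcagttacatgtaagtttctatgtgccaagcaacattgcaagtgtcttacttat
LINC02716 partner: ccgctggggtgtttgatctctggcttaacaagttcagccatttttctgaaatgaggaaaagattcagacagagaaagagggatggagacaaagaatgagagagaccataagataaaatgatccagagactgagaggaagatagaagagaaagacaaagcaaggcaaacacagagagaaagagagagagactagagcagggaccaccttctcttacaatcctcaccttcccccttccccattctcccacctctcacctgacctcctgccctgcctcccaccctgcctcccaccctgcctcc
ADAMTS9-AS1 partner: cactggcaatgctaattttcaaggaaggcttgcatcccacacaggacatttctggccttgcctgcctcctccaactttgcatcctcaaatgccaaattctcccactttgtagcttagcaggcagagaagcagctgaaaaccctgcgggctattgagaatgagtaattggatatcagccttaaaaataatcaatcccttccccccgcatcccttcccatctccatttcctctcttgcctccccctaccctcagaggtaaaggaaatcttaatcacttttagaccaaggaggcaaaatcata
SPATS2L partner: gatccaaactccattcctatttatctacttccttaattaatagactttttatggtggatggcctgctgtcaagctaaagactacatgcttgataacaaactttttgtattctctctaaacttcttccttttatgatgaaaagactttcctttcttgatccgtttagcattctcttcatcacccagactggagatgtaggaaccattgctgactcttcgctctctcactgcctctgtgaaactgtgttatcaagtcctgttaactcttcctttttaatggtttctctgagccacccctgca

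The next pair carries the octamer ATGCAAAT, the sequence bound by POU-family factors such as POU5F1 (OCT4), which is printed in capitals on whichever strand it was found. They were the members with the largest rise among windows that held the motif, and were picked after their values were seen. The VRK2 partner window (chr2:58357601-58357900) had FANCL as its nearest coding gene. The other window (chr7:12297601-12297900) came from the partner of a bait with no annotated promoter nearest THSD7A. That partner had TMEM106B as its own nearest gene. Its fragment ends at chr7:12297832, so the last bases of the window lie outside it, while the octamer lies inside. Neither window overlapped an annotated exon. The VRK2 partner stood at -3.45 and -2.83 in the naive and 1.54, -0.53 and 0.74 in the primed libraries (difference 3.72, limma adjusted p = 3.51e-15, and 0.0587 with low tiles set to the highest empty value), 449 kb from its bait. The other stood at -3.45 and -2.75 against 0.85, 0.34 and 0.59 (difference 3.69, adjusted p = 5.58e-15), 890 kb from its bait.
VRK2 partner: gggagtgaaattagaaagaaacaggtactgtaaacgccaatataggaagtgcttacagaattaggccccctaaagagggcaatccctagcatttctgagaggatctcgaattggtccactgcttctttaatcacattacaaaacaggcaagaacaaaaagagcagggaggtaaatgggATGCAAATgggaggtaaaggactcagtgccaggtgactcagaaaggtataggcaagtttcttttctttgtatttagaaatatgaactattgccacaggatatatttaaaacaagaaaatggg
near-THSD7A bait's partner: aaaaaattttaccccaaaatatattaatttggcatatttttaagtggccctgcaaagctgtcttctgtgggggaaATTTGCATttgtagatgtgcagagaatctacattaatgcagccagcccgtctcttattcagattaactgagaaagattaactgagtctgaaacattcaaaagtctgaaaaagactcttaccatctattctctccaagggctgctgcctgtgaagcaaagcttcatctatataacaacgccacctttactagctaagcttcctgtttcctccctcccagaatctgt

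The last pair comes from contacts among those with the highest scores and was also picked after the values were seen. The PRDM13 partner window (chr6:100457601-100457900) lay inside SIM1, outside its annotated exons, and the WT1 partner window (chr11:31821601-31821900) lay 3.57 kb (fragment midpoint) from the start of PAX6. PRDM13, SIM1, WT1 and PAX6 all encode transcription factors of embryonic development.
PRDM13 partner: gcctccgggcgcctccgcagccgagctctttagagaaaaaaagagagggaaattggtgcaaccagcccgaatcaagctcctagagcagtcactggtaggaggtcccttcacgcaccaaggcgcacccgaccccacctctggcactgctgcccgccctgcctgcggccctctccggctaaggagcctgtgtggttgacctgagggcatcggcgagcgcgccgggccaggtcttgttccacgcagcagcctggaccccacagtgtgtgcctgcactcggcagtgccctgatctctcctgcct
WT1 partner: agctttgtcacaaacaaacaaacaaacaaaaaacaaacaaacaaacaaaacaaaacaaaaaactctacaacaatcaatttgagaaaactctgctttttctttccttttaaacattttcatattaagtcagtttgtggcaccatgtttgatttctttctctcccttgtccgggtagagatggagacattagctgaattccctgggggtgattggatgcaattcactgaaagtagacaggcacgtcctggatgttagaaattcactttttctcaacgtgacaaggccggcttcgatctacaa

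The octamer stood in 4.48% of such windows in the 1832 primed-only partners called higher in primed cells and in 2.38% of those called lower. The share was 3.09% in all primed-only partners tested and 3.40% in all tested fragments. Windows follow the highest signed difference, so in partners called lower they hold the tile that fell least. Over whole fragments, 25.1% of primed-only partners held the octamer on either strand, against 22.3% of naive-only partners, 22.6% of shared partners and 25.5% of all HindIII fragments. Per Mb of sequence its matches numbered 86.9 in primed-only, 74.7 in naive-only and 80.1 in shared partners, and 105.9 in all fragments. A CTCF-type core motif, searched on both strands, was found in 9.32% of primed-only partners, against 12.2% of naive-only partners, 11.0% of shared partners and 6.45% of all fragments. Primed-only partners thus held this motif less often than either other class and more often than the genome at large, and these shares are a description, since fragment length differs between the classes and all fragments (median 2660 bp for primed-only partners and 2219 bp for all).

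Primed-only contacts spanned longer distances than the contacts of the other classes. Their median distance between midpoints was 362 kb (interquartile range 202 to 570 kb), against 211 kb (120 to 339) for naive-only and 255 kb (153 to 384) for shared contacts. Between 750 kb and 1 Mb lay 11.2% of primed-only contacts, 1.81% of naive-only and 2.62% of shared contacts. Under 100 kb the order was the reverse, with 9.47%, 19.6% and 13.9%. A primed-only contact skipped a median of 2 coding gene starts between its ends, against 1 in each of the other classes, and 20.7% skipped 5 or more (naive-only 15.2%, shared 11.9%). Contacts into the body of the bait's own gene numbered 1708 (7.39%), against 9.77% of naive-only and 10% of shared contacts.

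**Figure D1:**
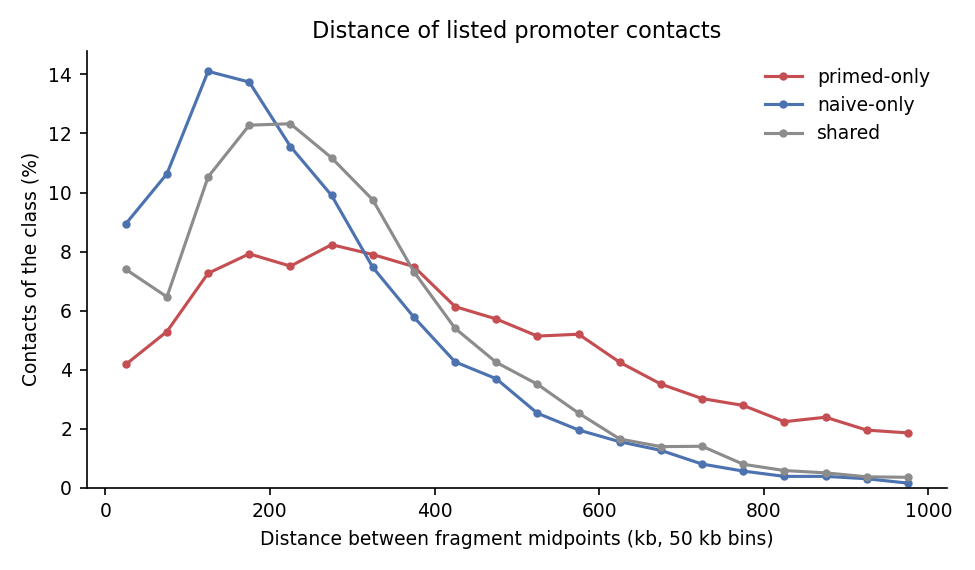
Distance between the midpoints of bait and partner (kb, x axis) in bins of 50 kb against the share of contacts of each class (%, y axis) for primed-only, naive-only and shared contacts, 1 list per cell state. The primed-only contacts reach further, with 11.2% of them between 750 kb and 1 Mb against 1.81% of naive-only and 2.62% of shared contacts.

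Most members stood close to the list's score limit. The CHiCAGO score, which weighs the reads of a pair against the number anticipated for its distance and fragments, had a median of 5.95 (5.38 to 7.01), and the lists hold only scores of 5 or more. Of the members, 11877 (51.4%) scored below 6, near the 55.2% of naive-only contacts and above the 22.7% of shared contacts. A further 1338 members (5.79%) scored 10 or more, against 580 naive-only contacts (2.88%), and the highest score was 62.06 in primed-only and 21.44 in naive-only contacts. The reads behind a member had a median of 18 (13 to 27). Just inside and outside the limits, the longest member measured 999823 bp and the shortest contact left out 1000002.5 bp, 1681 members had a naive contact 10 to 12 kb away while 2062 contacts were left out for one at 8 to 10 kb, and 9941 members (43.0%) had no naive contact within 50 kb.

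By chromosome, primed-only contacts exceeded naive-only contacts most on chromosome 5 (1718 against 926), chromosome 10 (ratio 1.66) and chromosome 13 (ratio 1.64), and fell short of them most on the X chromosome (603 against 1101) and chromosome 21 (ratio 0.64).

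Hi-C reads over the same places differed in the same direction. In bin pairs of 100 kb, 100 to 500 kb apart, the primed to naive ratio of di-tags over the 6375 pairs that held a primed-only contact was 1.08 times that of all pairs at the same distance (95% interval 1.075 to 1.080, counting error only). The value was 0.919 over the 7463 pairs with a naive-only contact and 0.986 over the 6538 pairs with a shared contact. With 1 library per state there is no test, the capture libraries were made from Hi-C libraries and may share material with these, and the naive file omits low pairs.

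The contacts were unevenly spread over promoters. A bait had a median of 2 primed-only contacts (mean 3.27, highest 38), and 3033 of the 7077 baits had 1. The 437 baits with 10 or more held 6473 contacts (28%), against 16.4% of naive-only contacts on baits with 10 or more. Of the baits, 3962 also had shared contacts, 3199 also had naive-only contacts and 2070 (29.2%) had neither. A group of 1200 baits (17%), with 3231 of the contacts (14%), had no contact on the same chromosome in the naive list at all. Coding promoters lay on 75% of the baits, and 495 had no annotated promoter.

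The 15 baits with most primed-only contacts were varied in function. PPID, which encodes the cyclophilin CYP40, led with 38 primed-only contacts beside 25 shared and 11 naive-only ones. DUSP6, a phosphatase that switches off ERK and is itself an ERK target gene, had 34 primed-only contacts, 99 to 339 kb away, 26 before it and 8 after it, and no contact on its chromosome in the naive list. HAND2, a transcription factor of heart and limb development, likewise had 32 and none in the naive list, at 219 to 705 kb. The baits near P3H2 and POU5F2, described below, also had none in the naive list.

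The other leading baits with a promoter were the shared fragment of the zinc finger genes ZNF10 and ZNF891 (34), the lncRNA LINC02032 (34, at 385 to 731 kb), the flagellin receptor TLR5 (34), the matrix genes HAPLN3 and MFGE8 (33), the mitochondrial chaperone HSPA9 (32), the myoglobin gene MB (32), NELL2 (31) and ZNF140 (30). Shared contacts were few on most of these, with 1 each on the ZNF10/ZNF891, LINC02032 and HSPA9 baits, 12 on TLR5 and 13 on NELL2, and naive-only contacts were found on PPID and NELL2 (4). The other 4 leading baits carried no annotated promoter. They were a fragment 19.6 kb from P3H2 (chr3:190139094-190144951, 32 contacts), a fragment 149 kb from POU5F2 (chr5:93885666-93894945, 32), a fragment 14.9 kb from the neural transcription factor gene SOX1 (chr13:112051855-112052726, 30) and a fragment near TBCA (30).

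**Figure D2:**
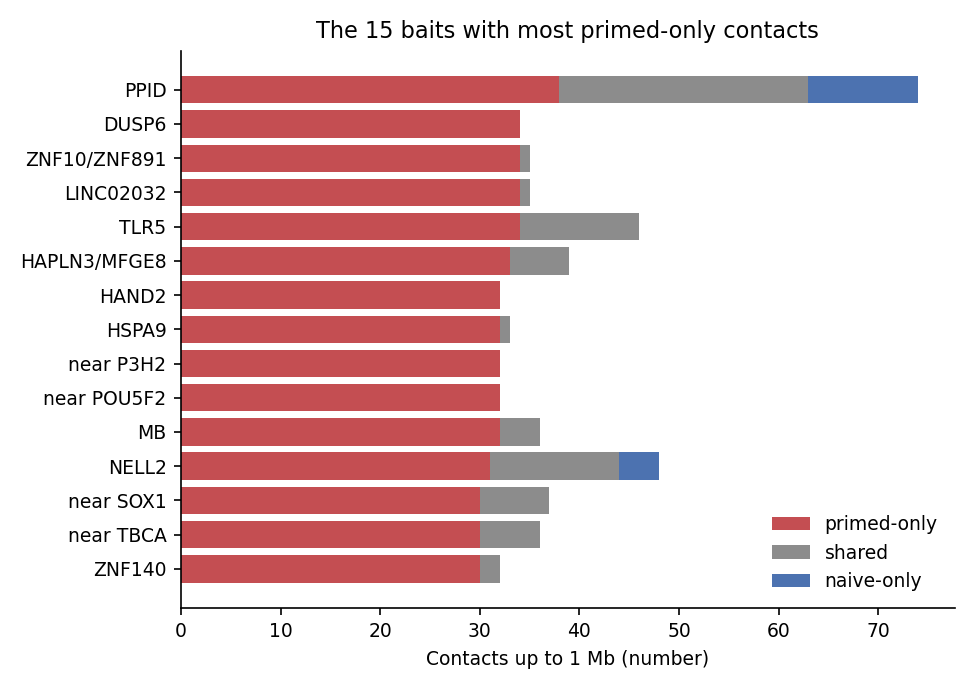
Number of contacts (x axis) of the 15 baits with most primed-only contacts (y axis), split into primed-only, shared and naive-only contacts, 1 list per cell state. PPID leads with 38 primed-only contacts, and DUSP6 and HAND2 carry 34 and 32 with no shared or naive-only contact. The baits near P3H2 and POU5F2 carry 32 each, also with no other class.

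At the distal end, 15944 of the 18932 partners (84.2%) were joined to 1 bait, 2988 to 2 or more and 96 to 5 or more, and 14087 (74.4%) took part in no shared or naive-only contact. Annotated promoters lay on 3737 partners (19.7%), against 22.0% of naive-only partners, 19.8% of shared partners and 12% of all fragments. Partners with a midpoint in a coding gene made up 60.5% (naive-only 61.7%, shared 58.4%, all fragments 43.5%), and their median GC content was 39.9% against 41.8%, 41.1% and 39.0%.

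A few partners were contacted by many baits. A fragment in FLG, the filaggrin gene of the epidermal differentiation complex (chr1:152320143-152322159), was joined to 13 baits of that complex. A fragment 24.5 kb from HOXB13 (chr17:48751766-48754699) was joined to 10 baits of the HOXB cluster, a fragment at HOXC4 (chr12:54049003-54054725) to 9 baits, fragments of the protocadherin clusters on chromosome 5 to 10, 9 and 8 baits, an olfactory receptor fragment on chromosome 1 to 10, a CHD4 fragment to 9, and 2 neighbouring fragments near DIO3 in the imprinted region of MEG3 and RTL1 to 8 each.

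H3K4me1 was used as a measure that the rule had not used. The deposited values are log2 RPM in 500 bp tiles, a fragment's level is the mean over its tiles, and differences are primed minus naive on that log2 scale. Fits used limma with Benjamini-Hochberg adjustment over 769037 fragments and a threshold of 0.05. The spread came from a curve common to all fragments of a given level, so standard errors were near 0.43 for fragments with the mark and larger at low levels (0.816 for a fragment in FLG described above), and p-values measure the spread between libraries that the labels do not tie to separate cultures. Single tiles with no read stood between -4.89 and -2.91 depending on the library (15.3% to 52.3% of tiles), which sets the lowest level each library can show. Of the markers of the naive state, 14 of 16 had higher H3K4me1 in naive libraries over the fragments with their annotated promoters, baited or not, and 12 had a fragment called lower in primed cells. Of these naive markers, DPPA5 and KHDC3L share 1 fragment, which counts for both. Of the primed markers, 12 of 15 were higher in primed libraries, 6 had a fragment called higher and 1 had one called lower. Of 9 markers of differentiated cells, 7 were higher in primed libraries and 5 had a fragment called higher, with medians over the list of -1.08 and -0.96 in the naive and -0.09, -0.34 and -0.31 in the primed libraries, and the part of such cells in the results was not tested.

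Partners of primed-only contacts were called higher in primed cells about as often as lower. This balance depended on scaling, on the level of the mark and on single libraries. Of 18344 partners tested among the 18932, 1832 (9.99%) were higher, against 8.22% of all tested fragments, and 1810 (9.87%) were lower, against 6.88%. Their median difference was 0.02, beside 0.07 over all fragments. Naive-only partners were higher in 5.78% and lower in 17.4% (median -0.23), and shared partners were higher in 7.80% and lower in 11.7% (median -0.05). The primed-only partners thus held the largest share of increases and the smallest share of decreases of the 3 classes, and most of them passed in neither direction. Libraries of the states did not overlap in 18.0% of partners upwards and 22.4% downwards, against 14.7% and 16.2% of all fragments. Among the 2062 partners above a mean level of -1, fitted alone, 24.8% were higher (512) and 14.3% lower (295). All fragments above that level stood at 21.6% and 16.8%. With each library centred on its median, 1083 partners were higher and 1880 lower. Without naive replicate 1, 542 were higher and 1184 lower, and without naive replicate 2, 1661 were higher and 969 lower.

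The calls varied with the position of the partner. Partners without an annotated promoter were higher in 11.0% and lower in 9.09%, and partners with a promoter in 5.93% and 13%. The share called lower was less at longer distances, from 12.8% under 100 kb to 7.50% between 750 kb and 1 Mb, while the share called higher stood between 8.26% and 11.9% with no order. Members with a score of 10 or more had 12.7% of partners higher and 9.23% lower, and those below 6 had 9.74% and 10.5%.

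At the promoter end more fragments were called lower than higher, as among all baited fragments, but the order turned when only the highest tile of a fragment was used (505 higher and 322 lower). Of 7066 baits tested, 480 (6.79%) were higher, against 5.35% of all baited fragments, and 777 (11.0%) were lower, against 12.7%, with a median difference of -0.10. Baits of naive-only contacts were higher in 4.46% and lower in 14.3%, and baits of shared contacts in 5.40% and 12.1%. Without naive replicate 1 the baits numbered 95 higher and 285 lower, without naive replicate 2 they numbered 311 and 274, and without primed replicate 3 those lower numbered 372.

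**Figure D3:**
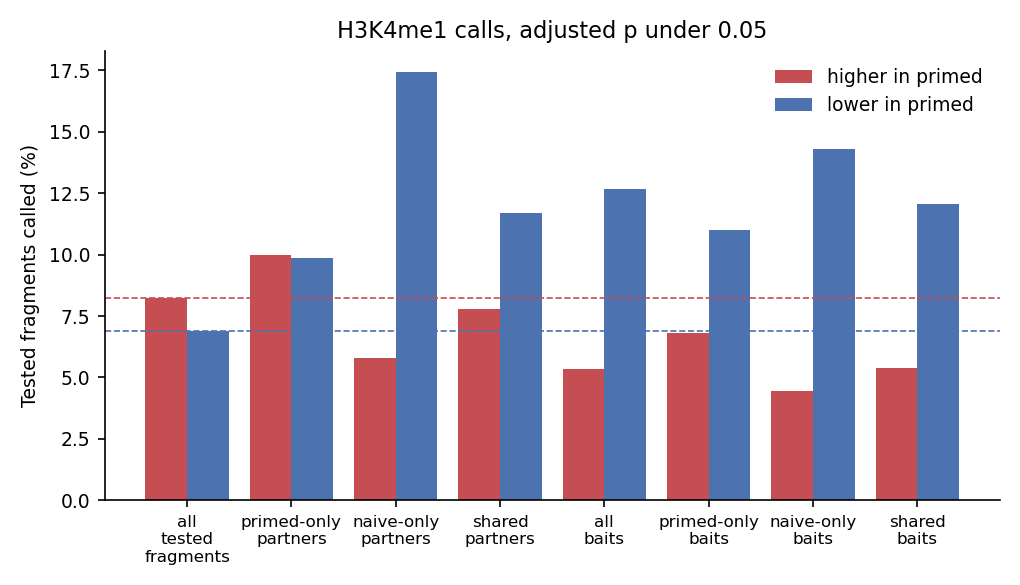
Share of tested fragments (%, y axis) called higher or lower in primed cells by limma at an adjusted p under 0.05, for partners and baits of primed-only, naive-only and shared contacts, beside all baited fragments and all tested fragments, whose shares are also drawn as dashed lines. Primed-only partners stand at 9.99% higher and 9.87% lower, and naive-only partners at 5.78% and 17.4%.

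The ends of a contact tended to be called in the same direction. Where the bait was called higher (1757 contacts), the partner was higher in 376 (21.4%) and lower in 56 (3.19%). Where the bait was called lower (2790 contacts), the partner was lower in 429 (15.4%) and higher in 114 (4.09%). Where the bait passed in neither direction (18546 contacts), the partner was higher in 9.16% and lower in 9.73%, and in 14480 contacts (62.6%) neither end was called. In naive-only contacts with a bait called lower the partner was lower in 33.7%, and in shared contacts in 26.3%. With a bait called higher the partner was higher in 10.9% of naive-only and 16.7% of shared contacts. Contacts of a bait share that bait and neighbouring partners lie side by side, so these shares count contacts and are not tested.

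The partner with the largest increase lay at chr6:40330162-40331611, outside coding genes, 256 kb from LRFN2 and 705 kb from its bait at TSPO2 and UNC5CL. Its level was -3.78 and -2.80 in the naive libraries and 2.28, 1.64 and 1.87 in the primed libraries. The difference was 5.22 (SE 0.43, limma adjusted p = 1.82e-28), so the fragment went from near the level of empty tiles to among the marked ones without overlap between states. Its contact scored 5.02 with 16 reads, close to the lower limit of the list. The neighbouring fragment, chr6:40327940-40330161, rose by 4.31 and was joined both to the same bait and to that of LRFN2, which encodes a synaptic adhesion protein, with a score of 12.55.

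The partner of LINC02716 at chr11:45410514-45412248, 366 kb from its bait, had levels of -3.58 and -2.80 in naive and 1.80, 1.64 and 1.42 in primed libraries (difference 4.82, adjusted p = 1.16e-24 by limma). A partner on chromosome 3 (chr3:65343374-65344908) was joined to the baits of RNU6-739P and ADAMTS9-AS1 and had levels of -3.97 and -2.09 against 2.04, 0.68 and 1.57 (difference 4.46, adjusted p = 2.28e-21). A further fragment of the ADAMTS9-AS1 bait, chr3:65277812-65278601, rose by 4.17. In each of these the lowest primed library stood well above the higher naive library.

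SPATS2L gave the nearest contacts of the group. Its partner at chr2:200309893-200311406, 3.64 kb from the bait midpoint and supported by 1183 reads, had levels of -4.16 and -2.52 in naive and 1.45, 0.67 and 1.16 in primed libraries (difference 4.43, adjusted p = 3.76e-21 by limma), and the adjoining fragment rose by 4.19. Among the next were a partner in KIF5C joined to EPC2, a chromatin regulator (4.30), and one in SHROOM3 joined to that gene's own promoter (4.29).

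The largest decreases showed that a contact absent from the naive list could end at DNA marked in naive cells. A partner in OCLN, a tight junction gene, was joined to the bait of CDK7, a kinase of transcription initiation, 269 kb away (chr5:69512264-69513615). Its level was 1.77 and 1.53 in the naive and -3.15, -3.13 and -2.73 in the primed libraries, and it fell by 4.65 (adjusted p = 6.32e-23 by limma). The others were partners of the MIR331/MIR3685 bait in the nuclear receptor gene NR2C1 (-4.38), of GSN (-4.36), of the BCS1L and PLCD4 baits in ARPC2 (-4.35) and of POLR1A/PTCD3 (-4.32). All the partners named above for the largest increases and decreases kept their call in every alternative run for them.

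**Figure D4:**
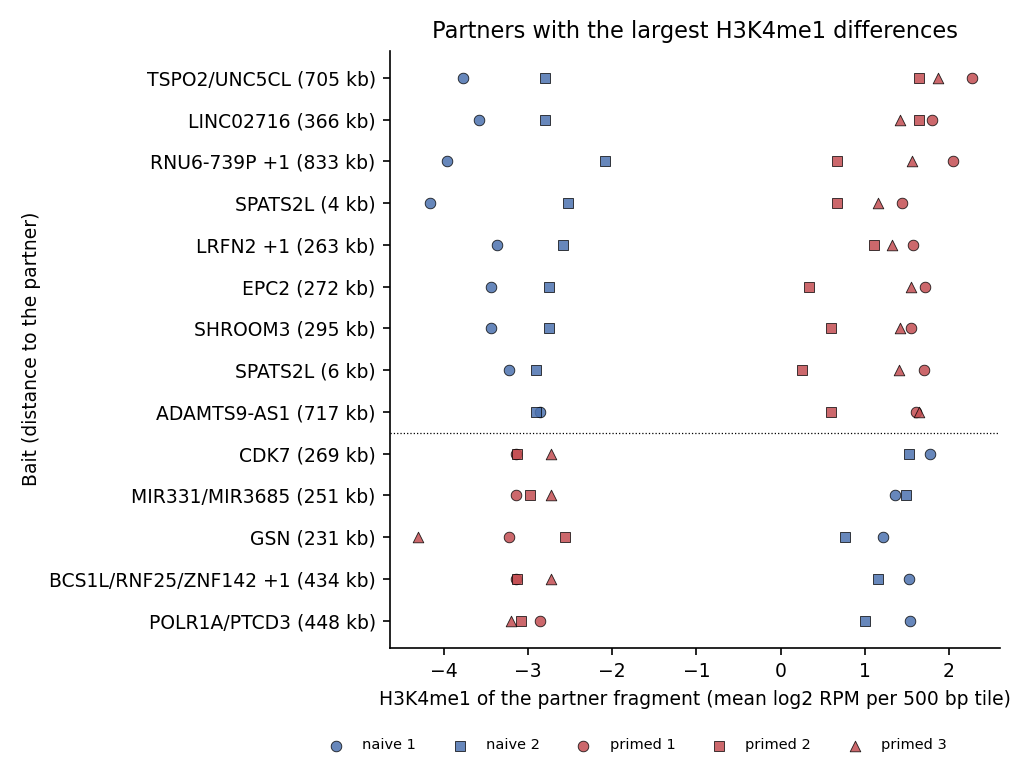
H3K4me1 level (mean log2 RPM, x axis) of the 9 primed-only partners described with the largest increase and the 5 with the largest decrease (y axis, named by the bait, with the distance, and +1 for a further bait), 1 point per library (2 naive in blue, 3 primed in red). Naive and primed points do not overlap in any of them, and the first partner spans from -3.78 in naive replicate 1 to 2.28 in primed replicate 1.

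Baits with many contacts differed in what their partners carried. The bait near P3H2 had 32 partners, of which 28 were called higher and none lower, with a median difference of 2.35 (0.66 to 3.92). The median level over these partners was -3.37 and -2.83 in the naive and -0.51, -1.37 and -0.62 in the primed libraries, while the bait itself differed by 0.25 (adjusted p = 0.997 by limma). Between 13 and 28 were called in the alternatives, and 13 remained when low tiles were set to the highest empty value. Partners of 1 bait lie next to each other and are not independent of each other.

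DUSP6 had 17 of 32 tested partners higher and none lower, with a median difference of 1.31 (0.03 to 4.10). The medians were -3.62 and -2.86 in the naive and -1.68, -1.97 and -1.79 in the primed libraries. Its most raised partner, chr12:89081475-89085660, stood at -3.51 and -2.83 against 1.26, 0.42 and 1.11 (difference 4.10, SE 0.43, adjusted p = 3.01e-18 by limma). The DUSP6 bait, marked in both states, had levels of -0.45 and -0.60 against 0.22, -0.31 and 0.22 (difference 0.57, adjusted p = 0.543). Without naive replicate 1 the partners called higher numbered 7.

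LINC02032 followed with 14 of 33 partners higher (median 0.98, and 4 higher without naive replicate 1), the bait near POU5F2 with 10 of 31 (median 0.88, and 1 with low tiles set to the highest empty value), the bait near SOX1 with 8 higher (4 without naive replicate 1) and 2 lower of 30, and HAPLN3/MFGE8 with 7 of 32 (4 without naive replicate 2). Near the background stood TLR5 with 3 higher of 33, although its bait rose from -2.95 and -2.40 to 0.05, -0.34 and -0.38 (difference 2.45, adjusted p = 6.41e-07 by limma), a call kept in the 14 alternatives that could be run for it. HAND2 had 1 partner higher and 1 lower of 31, while its bait rose by 1.45 (adjusted p = 0.00745), a call lost in 7 alternatives. NELL2 had 2 higher and 3 lower of 30, the bait near TBCA 2 and 1 of 30, ZNF10/ZNF891 none and 1 of 33, and ZNF140 had none called of 29. MB had 6 higher (2 by the highest tile) and 4 lower of 32.

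The partners of PPID and HSPA9 were called lower where they were called. For PPID 13 of 36 were lower (8 without the trend) and none higher, with a median difference of -0.86 (-3.70 to 1.18) and median levels of -1.84 and -1.65 in the naive and -2.97, -2.70 and -2.90 in the primed libraries. Its lowest partner, chr4:159367168-159367713, went from 1.36 and 0.42 to -3.30, -2.98 and -2.15. For HSPA9 9 of 31 were lower and none higher (median -0.67), and the bait fell by 1.70, from -1.20 and -0.98 to -2.82, -2.67 and -2.89 (adjusted p = 0.00165 by limma, lost when only the highest tile was used). Most partners of both baits passed in neither direction.

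**Figure D5:**
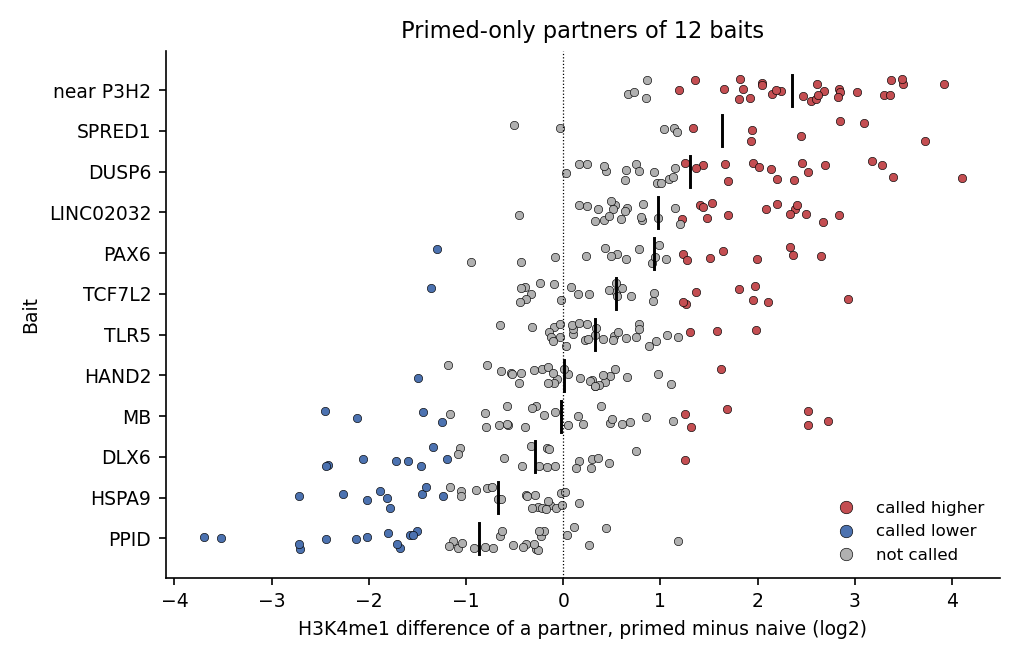
H3K4me1 difference (primed minus naive, log2 RPM, x axis) of each partner tested, for 12 baits (y axis), 1 point per partner, red where called higher, blue where called lower and grey where not called by limma at an adjusted p under 0.05, with the median as a black line. The partners of the bait near P3H2 lie between 0.66 and 3.92 and those of PPID between -3.70 and 1.18.

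The 10 contacts with the highest scores joined developmental regulators over long distances. HAND2 and a fragment 684 kb away (chr4:174210654-174215332) scored 62.06 with 55 reads, and the partner differed by 0.32 in H3K4me1 (adjusted p = 0.885 by limma). SIM1 and PRDM13 were joined from both sides, by the SIM1 bait to a fragment in PRDM13 (score 57.91, 853 kb) and by the PRDM13 bait to a fragment in SIM1 (44.11). The partner in PRDM13 differed by -0.18 and was not called, while the partner in SIM1 stood at -2.26 and -2.49 in the naive and 0.01, -0.23 and -0.19 in the primed libraries (difference 2.23, adjusted p = 6.94e-06).

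PAX6, a regulator of eye and neural development, and WT1, a regulator of kidney and gonad development, were joined from both sides in the same way. The PAX6 bait reached the WT1 promoter at 614 kb with a score of 49.79 and 72 reads, and that partner stood at -2.54 and -1.46 against 0.93, 0.42 and 0.58 (difference 2.65, adjusted p = 4.48e-08 by limma). The WT1 bait reached a fragment with a PAX6 promoter (chr11:31801177-31801863, score 43.0). It also reached chr11:31821115-31821943 (43.85), on the other side of the PAX6 bait fragment. This latter partner rose by 1.94 (limma adjusted p = 0.000131). Its call was lost without naive replicate 2 (difference 1.41) and with libraries centred (adjusted p = 0.118). The call was also lost with low tiles set to the highest empty value (0.197) and without the trend (0.0545). Of the partners of the PAX6 bait 8 of 22 were higher and 1 lower, of PRDM13 5 of 15 were higher, and of WT1 4 of 14 were higher. Without naive replicate 1 the first 2 of these counts of higher partners were 2 and 2. Others of the 10 were 2 more contacts of SIM1 (44.7 and 42.2), and one of the bait near SOX1 (52.71).

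Of the 10 fragments with most baits, 9 passed in neither direction. The FLG fragment differed by 0.13 and the fragment near HOXB13 by 0.51 (adjusted p = 0.629 by limma). The HOXC4 fragment stood at -1.98 and -1.43 in the naive and -0.19, -0.79 and -0.16 in the primed libraries and was called higher by 1.33 (adjusted p = 0.0175), a call lost in 8 alternatives.

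Lists of genes were followed through their promoters. Over all 15982 baited fragments, 44.3% carried a primed-only contact, with 1.45 primed-only and 1.26 naive-only contacts per bait, and 9.99% of partners tested were higher and 9.87% lower. Of the primed-state markers, 10 of 11 baits had primed-only contacts, 72 in all beside 11 naive-only and 26 shared. Partners of these were higher in 27 of 69 and lower in none (median 0.97), of which DUSP6 gave 17, and 9 were called without naive replicate 1. OTX2, a transcription factor of the primed state, had 10 and no other class, with 2 of 10 partners higher. The intermediate filament gene VIM had 4, and SFRP2, a secreted WNT inhibitor, had 1 beside 9 naive-only contacts.

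The naive-state markers leaned to naive-only contacts, with 3 of 8 baits and 12 primed-only against 19 naive-only contacts. TBX3, a T-box transcription factor, had 6 primed-only contacts and 3 of its 4 tested partners were higher. TFAP2C had 4 and DPPA3 had 2, while OOEP had none beside 10 naive-only contacts and DPPA5 none beside 4. Partners of the list were higher in 4 of 10 and lower in none. Of the core pluripotency genes, 2 of 8 baits carried members, with 14 contacts against 10 naive-only. SOX2 had 8 primed-only, 4 naive-only and 11 shared contacts, and 5 of its 8 partners were higher (median 1.46, and 2 with libraries centred). LIN28B, a repressor of let-7 miRNAs, had 6, and SALL4 had none beside 5 naive-only contacts.

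Signalling genes of FGF and ERK, the pathway that PD0325901 blocks in the naive medium, carried 106 primed-only against 28 naive-only and 119 shared contacts, on 17 of 23 baits. The ligand FGF8 had 7 beside 5 naive-only, the receptor FGFR1 had 1 beside 6, and the feedback inhibitors had most, with DUSP6 at 34, SPRY2 at 19, DUSP4 at 16 and SPRED1 at 12. Partners were higher in 34 of 100 and lower in 2 (median 0.84), and 13 were called without naive replicate 1. For SPRED1 7 of 12 were higher, with median levels of -3.65 and -2.84 in the naive and -0.86, -1.62 and -0.88 in the primed libraries (3 without naive replicate 1). For SPRY2 3 of 18 and for DUSP4 2 of 16 were higher, and DUSP6 gave 17 of the 34 higher partners of the list.

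The NODAL/TGF-beta pathway, which maintains the primed state, had 47 primed-only against 6 naive-only contacts on 8 of 18 baits. The receptor ACVR2A had 13 with 4 partners higher, the activin antagonist FST had 9 and the SMAD corepressor SKIL had 6. Partners of the list were higher in 8 of 45 (4 without naive replicate 1) and lower in 1. The WNT pathway had 59 against 66 naive-only contacts on 15 of 25 baits. Its transcription factor TCF7L2 had 28 primed-only contacts, with 8 of 28 partners higher and 1 lower (3 higher without naive replicate 1), and LEF1, of the same family, had none beside 12 naive-only contacts. The secreted inhibitor DKK1 had 7 and none of its partners was called. Partners of the list were higher in 13 of 59 and lower in 3, and those higher numbered 6 without naive replicate 1.

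Developmental homeobox families, which specify position and lineage, held 725 primed-only against 159 naive-only contacts and 507 shared ones. Of their 129 baits 105 (81.4%) carried a member, at 5.62 primed-only contacts per bait. Partners were higher in 108 of 547 and lower in 35 (median 0.34), and those higher numbered 40 without naive replicate 1 while those lower numbered 14 without naive replicate 2. PAX6 had 37 over 2 fragments, HOXB2 31, NKX2-1 28 and DLX6 26. Their partners differed, with 3 of 19 higher on the leading HOXB2 fragment, 4 of 26 on NKX2-1, and on DLX6 1 higher and 8 lower of 26 (2 lower with the highest tile). HOXC8 went the other way with 7 primed-only beside 15 naive-only contacts.

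Clustered protocadherins, cell surface proteins of neuronal identity, had 213 primed-only against 14 naive-only and 276 shared contacts on 28 of 32 baits, at 6.66 per bait. PCDHGB4 had 23 and PCDHA2 22, and partners of the family were higher in 4 of 76 and lower in 8 (4 without the trend). Genes of neural adhesion and guidance had 72 against 53 naive-only contacts, led by NCAM1 (14), NRP2 (12), SLIT3 (12) and EPHA3 (9). Partners were higher in 14 of 69 and lower in 2, and those higher numbered 5 without naive replicate 1. For the leading fragment of SLIT3, a guidance ligand, 5 of 8 were higher (median 1.67).

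Epithelial-mesenchymal genes had 24 primed-only against 18 naive-only contacts, with 3 partners higher and 3 lower of 22. The decreases were all partners of ESRP1, an epithelial splicing factor (3 of 4). Genes of the general machinery carried few members. Ribosomal protein genes had 32 against 97 naive-only contacts on 17 of 72 baits (23.6%), led by RPL34 with 5, and RPS6 had 1 beside 12 naive-only. Histone genes had 21 against 36, led by the fragment of H2AC13 and H2BC13 with 6, and 8 of 16 partners were lower and none higher (3 lower with the highest tile).

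DNA methylation enzymes had 3 primed-only against 29 naive-only contacts, all 3 on TET2, a 5-methylcytosine oxidase whose bait fell by 2.36 (adjusted p = 1.52e-06 by limma, and 0.251 by the highest tile) and which had 2 of 3 partners lower. TET3 had none beside 15 naive-only contacts. Polycomb subunits had 17 against 40, led by EED, a core subunit of PRC2, with 5 beside 11 naive-only contacts, and 1 of 16 partners was lower and none higher. The lists were chosen with earlier results known, so their counts describe these genes and are not read as particular to them.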

How the data were processed

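PCHi-C, Hi-C and H3K4me1 CUT&RUN files of naive and primed PSCs were used, and the NANOG, SOX2 and input libraries were not used here. For PCHi-C the authors mapped reads to GRCh38, combined 2 libraries per state in CHiCAGO and deposited pairs of HindIII fragments with a score of at least 5 and the read count of each pair, in which baits carry a strand sign and other fragments a dot. The deposited Hi-C values are counts of di-tags in 100 kb bins. The H3K4me1 values are log2 RPM in 500 bp tiles made by the authors with Trim Galore 0.5.0 and Bowtie2 2.3.2, per the labels.

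HindIII fragments were computed from GRCh38 (860389) and every listed end matched one. Promoters were GENCODE 44 starts with 1000 bp upstream. A fragment's H3K4me1 level was the mean over tiles centred in it, and it was tested where a tile was above the empty value in at least 1 library. H3K4me1 libraries were compared with limma 3.58.1 (R 4.3.3), with a mean-variance trend, Benjamini-Hochberg adjustment over all tested fragments and a threshold of 0.05. The estimated prior degrees of freedom were infinite, so the spread came from the trend alone. The spread between libraries was larger in short fragments (median SD 0.736 in fragments of 1 tile and 0.402 in those of 17 or more), which were called more often. On simulated data the fit recovered 23.0% of fragments changed by 2 and 0% of those changed by 1 on the log2 scale. It made 4 false calls among 20000 simulated fragments. The simulated noise came from the fitted trend itself, without the larger spread of short fragments. A smaller share of fragments was changed than was called in the data. The simulation therefore cannot tell the rate of false calls in these data. If an empty tile stands for 0.9 reads, the libraries held 21785481 and 6743809 (naive) and 8853586, 7892017 and 26596518 (primed) reads. The depth of the contact lists is the read count of each pair, and 1 list per state allows no test.

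Groups came from the sample labels. Members and gene lists were chosen with earlier results of these data known. Named were the 15 baits with most members, the 10 partners with the largest called rise and 5 with the largest called fall whose libraries did not overlap, the 10 partners with most baits, the 10 highest scores and, in each of 14 gene lists, up to 4 genes with most primed-only and 2 with most naive-only contacts. The lists were primed-state markers, naive-state markers, core pluripotency, NODAL/TGF-beta, FGF-ERK and WNT pathways, neural adhesion and guidance, epithelial-mesenchymal genes, DNA methylation enzymes, Polycomb subunits, developmental homeobox families, clustered protocadherins, histone genes and ribosomal protein genes. A few items that the rule names are not reported here. Baits so named were also described through all their tested partners. Alternatives changed the matching of contacts, the score, read and distance limits, the summary and scaling of tiles, filters, the test and the libraries used. Tables were joined with Python 3.11.15, pandas 2.3.3, numpy 2.4.6 and scipy 1.17.1, and figures were drawn with matplotlib 3.10.9.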

Additional observations from a re-analysis of the deposited data

How the results depend on the processing

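The number of primed-only contacts followed the rule for a match. It was 40103 when only the same fragment pair counted (naive-only 34343), 15120 with 25 kb (13274), 11080 with a score of at least 7 in both lists, 4718 with at least 10 in both, and 1338 with at least 10 in the primed list alone, and it stayed within 1.5 times under the other 5 alternatives, in 2 of which naive-only contacts outnumbered it (the same number of top-scoring pairs, and 500 kb). Replicates inside a contact list could not be left out.

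Of the H3K4me1 counts, partners called higher (1832) numbered 810 with low tiles set to the highest empty value, 1083 with centred libraries, 512 above a level of -1, 1137 in fragments of at least 5 tiles, 920 without the trend, 2867 for members without tolerance and 142 for scores of at least 10. Partners called lower (1810) numbered 1113 by the highest tile, 295 above -1, 942 without the trend, 2983 without tolerance and 103 for high scores. Baits called higher (480) numbered 276, 218, 190 and 193 with the floor, centring, the level filter and no trend, and 61 for high scores. Baits called lower (777) numbered 322 by the highest tile, under which 505 were higher, 207 above -1, 296 without the trend and 71 for high scores. The floor and the fragments of at least 5 tiles were chosen after seeing the data. Leaving out libraries gave 542 to 1945 and 969 to 1900 partners and 95 to 533 and 274 to 914 baits (higher and lower), and a median difference of -0.30 (without naive replicate 1) to 0.34 (without naive replicate 2). Without a naive library the other was assumed to vary like the primed ones. Centring moved the median of all fragments from 0.07 to -0.08 and that of the partners from 0.02 to -0.12. With centring 5.90% of partners were higher and 10.2% lower, against 4.82% and 7.01% of all fragments. Above a level of -1, 24.8% of partners were higher and 14.3% lower, against 21.6% and 16.8% of all fragments. Baits above it stood at 10.4% and 11.3%. Without the trend, partners stood at 5.02% and 5.14%, against 3.76% and 3.52% of all fragments. In fragments of at least 5 tiles they stood at 10.6% and 12.8%, against 8.80% and 8.83%.

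With the replicate block, partners numbered 1456 higher and 1276 lower and baits 311 higher and 347 lower. Deviations of same-numbered libraries correlated at -0.03 and 0.21. The deviations of the 2 naive libraries mirror each other, so these values cannot tell whether a number marks a shared batch. The relative Hi-C ratio of 1.08 was 1.07 at 100 to 300 kb, 1.06 at 100 to 200 kb and 1.10 over pairs in both files. Of 593 alternative values of 42 named fragments called, 471 kept the call, 120 lost it and 2 reversed, both by the highest tile: the H2AC20/H2BC21 bait at 0.021 and the RPL26L1 bait at 0.32, neither of which carries a primed-only contact. The cause was not tested for any of these.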
